A study of Homo sapiens with 26 samples.

Results

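The serine and one-carbon synthesis genes were described as a set of 10 genes among the 63086 genes of the count files. PHGDH, PSAT1 and PSPH make serine from a glycolytic intermediate. SHMT1 in the cytosol and SHMT2 in mitochondria split serine into glycine and a folate-bound one-carbon unit. MTHFD2, MTHFD1L and ALDH1L2 process that unit in mitochondria, PCK2 is the mitochondrial enzyme that makes phosphoenolpyruvate from oxaloacetate, and ASNS makes asparagine. The 10 genes were chosen by name, and the choice was made on measured values, since higher levels of several of them in RQ cells were known from earlier results of these data. The values of RQ against WT are therefore given as a description without a test. The WT libraries behind that choice also serve the other comparisons with WT, whose p-values do not account for it. Of the 10 genes, 8 passed the filter on low counts and were tested, and ALDH1L2 and ASNS did not pass it.

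The pathway draws carbon from glycolysis and delivers formate and glycine for purines, thymidylate and methionine. Several of its genes are known targets of ATF4, a transcription factor whose translation rises when the integrated stress response slows general protein synthesis. Arsenite, which binds protein thiols and causes oxidative stress, is a common trigger of that response.

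RNA was counted in HCT116 cells, a human colorectal carcinoma line, that carried Tet-OsTIR1 and had been made deficient in IGF2BP2 and IGF2BP3 by CRISPR. The knockouts came from sorted single-cell clones. The cells then received mCherry-tagged IGF2BP1, an RNA-binding protein, from a lentivirus, either as wild type (WT) or with a change in a disordered linker. S181E and Y396E put glutamate in place of a serine or tyrosine that can be phosphorylated, and RQ puts glutamine in place of arginines. Each construct was studied as 1 population sorted through a narrow mCherry gate, so an effect of the construct and one of the population cannot be told apart. Each population was exposed to 500 µM sodium arsenite for 2 h, or had PBS added as control. This gave 8 groups of 3 libraries from dishes plated independently. Parental HCT116 cells, without the transgene, gave 1 control and 1 arsenite library. The paper calls them nonengineered, so they differ from the transduced populations by the knockouts, cloning and sorting as well as by the transgene.

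Depth was 22508145 to 50834401 counts per library. Y396E arsenite replicate 3 stood apart, with counts in 13897 genes against at least 20850 in each other library. Several values of PSPH, SHMT1 and PCK2 that moved without it are given both ways, but not all values of Y396E arsenite cells are. The protein-coding share of the counts was 89.5% to 91.7% in WT and RQ control libraries, 94.7% to 95.9% in S181E and Y396E control libraries and 97.0% to 98.3% after arsenite. IGF2BP1, which the transgene supplies, had a mean of 11.9 ± 2.24, 18.4 ± 1.54, 16.3 ± 1.16 and 14.2 ± 1.88 CPM in WT, S181E, Y396E and RQ control cells (SD, n = 3). After arsenite the means were 28.8 ± 1.13, 42.7 ± 0.679, 42.7 ± 1.24 and 46.5 ± 0.852 CPM. The parental libraries had 0.343 and 0.638 CPM. CPM are read counts relative to the protein-coding total of a library, after scaling of the libraries by trimmed means (TMM). Of 7 epithelial markers, 5 were measured at a group mean of 27.9 CPM or more, while the intestinal markers CDH17 and VIL1 were at 0.124 CPM or less. The 9 markers of leukocytes, fibroblasts and endothelium summed to 6.46 to 12.1 CPM per library, most of it COL1A1.

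The promoters are shown because 6 of the 8 tested members rose after arsenite in every population and because ATF4 is known to bind a short element, TGATGNAA, in some of them. RefSeq promoter windows (GRCh38.p14) of 300 bases, 250 before and 50 after the transcription start, were present for 7 of the 10 genes, and PSPH, SHMT2 and ALDH1L2 are named only. The element was searched on both strands and occurred in windows of 2 of the 7 genes, ASNS and MTHFD1L. Both genes had several windows, and each had a window without the element. The MTHFD1L windows with it held the same site, at -129, -90 or 24 relative to the start of the window's transcript. In the windows of PHGDH, MTHFD2 and PCK2, 197, 201 and 225 of the 250 bases before the start lie in annotated exons. Among all 27305 genes of the RefSeq windows it occurred in 1217 (4.46%). The stretches of 30 bases around the element are given 5′ to 3′ on the strand of the gene, with the element in capitals.
ASNS (chr7:97872458-97872487, minus strand): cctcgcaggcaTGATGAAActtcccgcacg
MTHFD1L (chr6:150866346-150866375, plus strand): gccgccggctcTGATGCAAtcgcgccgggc
PSAT1 and SHMT1 stand for windows without a match, and their 250 bases before the start are given whole. PSAT1 was among the genes with the greatest difference between RQ and WT, and SHMT1 was close to WT in RQ.
PSAT1 (chr9:78296875-78297124, plus strand): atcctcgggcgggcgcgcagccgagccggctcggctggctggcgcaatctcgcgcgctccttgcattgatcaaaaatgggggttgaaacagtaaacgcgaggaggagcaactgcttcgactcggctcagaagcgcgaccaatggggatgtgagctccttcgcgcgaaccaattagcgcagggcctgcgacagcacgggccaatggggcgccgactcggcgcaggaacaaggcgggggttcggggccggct
SHMT1 (chr17:18363551-18363800, minus strand): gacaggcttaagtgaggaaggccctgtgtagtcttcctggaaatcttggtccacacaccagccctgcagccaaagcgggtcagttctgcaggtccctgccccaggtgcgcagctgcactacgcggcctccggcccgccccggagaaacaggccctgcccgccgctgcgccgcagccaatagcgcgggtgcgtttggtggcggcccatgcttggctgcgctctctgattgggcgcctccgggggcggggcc
A match is a run of letters and not evidence of binding, and its absence says only that these letters are not in this window.

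Per kilobase of exon, the levels in WT control cells ran from 68.7 CPM per kb for MTHFD2 and 53.9 for SHMT2 through 37.1 for PSAT1 to 4.36 for PCK2. PSPH, MTHFD1L, SHMT1 and PHGDH lay between 16.6 and 22.4 CPM per kb. ASNS had 0.152 and ALDH1L2 0.0897 CPM per kb. The annotation places 82.4% of the exon bases of ASNS (2415 of 2932) on the same strand as exons of a readthrough long noncoding gene (ENSG00000284707), so reads there match both annotated genes. The file headers name no counting option for such reads, and the readthrough gene had 403 counts over all 26 libraries. If such reads were left out, the ASNS values given here are too low, which was not tested. The ASNS count of 5 to 223 reads per library is thus an uncertain measure of its level. PSPH has a near copy, PSPHP1, whose counts were 15.1% of those of PSPH over all libraries and 21.5% at most in 1 library. In an alternative chosen after seeing the data, PSPH summed with PSPHP1 kept the call of PSPH in all 13 comparisons, with log2 changes after arsenite of -0.38 in WT and -0.31 in S181E.

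**Figure D1:**
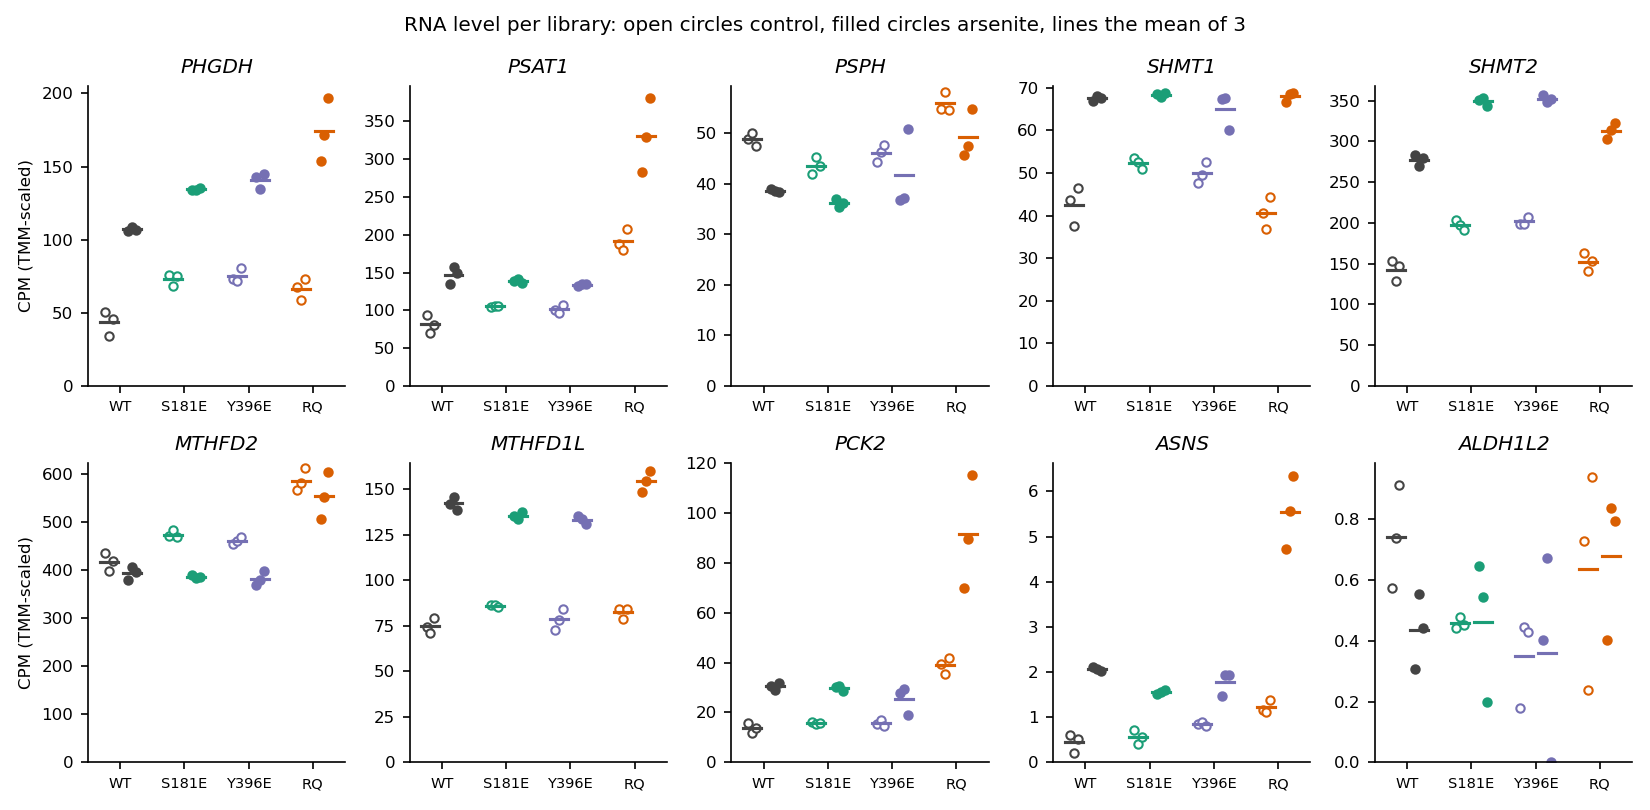
RNA level in CPM on a linear axis from 0 for each of the 10 genes in the 24 mCherry-IGF2BP1 libraries, by population; open circles are control, filled circles arsenite and lines the mean of 3 libraries. The 3 RQ libraries of PSAT1 and PCK2 lie above those of every other population under the same treatment, and the ASNS and ALDH1L2 panels rest on counts of at most 223 and 35 reads per library.

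The first comparison asked how the genes responded to arsenite within each population. PHGDH, PSAT1, SHMT1, SHMT2, MTHFD1L and PCK2 rose in all 4 populations, by 0.38 to 1.39 on the log2 scale. PSPH was called lower in WT and S181E cells and MTHFD2 in S181E and Y396E cells, and the S181E call of PSPH and the Y396E call of MTHFD2 were close to the fold threshold. A gene was called when its edgeR quasi-likelihood p, adjusted by Benjamini-Hochberg over the 9099 genes tested, was under 0.05 and its fold change above 1.2. Of the 8 tested genes, 6 were called higher in each population. Among all genes tested the share called higher was 36.3%, 32.0%, 32.9% and 37.1% for WT, S181E, Y396E and RQ. The numbers called lower were 1, 2, 1 and 0 in the same order, against 35.9%, 33.3%, 32.9% and 35.8% of all genes. For the count of 0 in RQ, 0 genes were lower at an unadjusted p under 0.05 in edgeR and 0 were called lower by DESeq2. For WT, S181E, Y396E and RQ, the median log2 change of the 8 genes was 0.88, 0.53, 0.55 and 0.85, and over all genes tested it was -0.01, -0.03, -0.03 and -0.01. Counts are relative to the library, so more RNA of a gene per cell and less RNA of other genes cannot be told apart.

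PHGDH (ENSG00000092621.13, chromosome 1, 119648411 to 119744215, plus strand), the enzyme of the first step of serine synthesis, had 50.4, 34.3 and 45.97 CPM in the WT control libraries and 106, 109 and 107 after arsenite. In S181E cells it went from 75.7, 68.5 and 75.3 to 134, 134 and 135 CPM, and in Y396E cells from 73.1, 71.6 and 80.7 to 143, 135 and 145. In RQ cells the control libraries had 67.6, 58.9 and 73.0 CPM and the arsenite libraries 154, 171 and 197. Every arsenite library lay above every control library of any population. The log2 rises in WT, S181E, Y396E and RQ were 1.29 ± 0.10 (SE), 0.88 ± 0.10, 0.91 ± 0.10 and 1.39 ± 0.10, with edgeR adjusted p-values of 1.13e-11, 1.13e-08, 5.95e-09 and 1.83e-12.

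PSAT1 (ENSG00000135069.14, chromosome 9, 78297125 to 78330093, plus strand), the aminotransferase of the second step, had 94.5, 70.0 and 81.0 CPM in WT control libraries and 135, 157 and 149 after arsenite. In S181E cells the values were 105, 105 and 106 and then 139, 141 and 137 CPM, and in Y396E cells 101, 96.4 and 107 and then 132, 135 and 135. The RQ control libraries had 187, 179 and 208 CPM and the RQ arsenite libraries 283, 329.7 and 381. Within each population the 3 arsenite libraries lay above the 3 control libraries. PSAT1 rose by 0.84 ± 0.09 in WT and 0.79 ± 0.09 in RQ, and by 0.40 ± 0.09 in S181E and 0.40 ± 0.09 in Y396E cells. The edgeR adjusted p was 5.00e-09, 8.82e-09, 0.00025 and 0.00026 in that order. PSPH (ENSG00000146733.14, chromosome 7, 56011064 to 56051604, minus strand), the phosphatase of the last step, went the other way. Its WT control libraries had 48.8, 50.1 and 47.5 CPM and its WT arsenite libraries 38.9, 38.5 and 38.3. The log2 change was -0.34 ± 0.09 in WT (edgeR adjusted p = 0.001) and -0.27 ± 0.09 in S181E (edgeR adjusted p = 0.00781). In Y396E it was -0.15 ± 0.09, with libraries at 36.8, 37.2 and 50.9 CPM after arsenite, and in RQ it was -0.18 ± 0.09, and neither was called. The value of 50.9 CPM belonged to Y396E arsenite replicate 3, and without that library the Y396E change was -0.30 and was called, whereas the S181E change was -0.26 and was not. The S181E call held in 16 of 33 alternatives, with values of -0.31 to -0.23, and DESeq2 (-0.25) did not make it. With library totals in place of TMM, PSPH was called in neither WT (-0.18) nor S181E (-0.23).

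SHMT1 (ENSG00000176974.22, chromosome 17, 18327873 to 18363550, minus strand) rose from a group mean of 42.5 ± 4.60 to 67.6 ± 0.606 CPM in WT cells (SD, n = 3) and from 40.6 ± 3.75 to 68.0 ± 1.23 CPM in RQ cells. Its arsenite libraries lay between 60.1 and 68.8 CPM in all 4 populations, a narrower range than the 37.0 to 53.6 CPM of the control libraries in relation to the level. SHMT2 (ENSG00000182199.11, chromosome 12, 57229711 to 57234935, plus strand) had 153, 128 and 147 CPM in WT control libraries and 284, 269.7 and 279 after arsenite. In RQ cells it went from 163, 141 and 153 to 302, 314 and 322 CPM. The log2 rises of SHMT2 were 0.96 ± 0.05, 0.82 ± 0.05, 0.80 ± 0.05 and 1.03 ± 0.05 in WT, S181E, Y396E and RQ, and its largest edgeR adjusted p was 1.33e-12. For SHMT1 they were 0.67 ± 0.07, 0.38 ± 0.07, 0.38 ± 0.07 and 0.74 ± 0.07, with a largest edgeR adjusted p of 1.87e-05. SHMT1 and SMCR8 on the opposite strand share 184 exon bases, and counting was by strand.

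The mitochondrial folate enzymes did not move as 1 group. MTHFD1L (ENSG00000120254.16, chromosome 6, 150865679 to 151101887, plus strand), which releases formate in mitochondria, rose from a mean of 75.1 ± 4.08 to 142 ± 3.68 CPM in WT cells and from 82.6 ± 3.07 to 154 ± 5.94 in RQ cells (SD, n = 3). Its log2 rises across WT, S181E, Y396E and RQ were 0.92 ± 0.05, 0.65 ± 0.05, 0.76 ± 0.05 and 0.90 ± 0.05, and the largest edgeR adjusted p was 1.84e-11. MTHFD2 (ENSG00000065911.13, chromosome 2, 74186172 to 74217565, plus strand), the bifunctional dehydrogenase and cyclohydrolase of the preceding steps, was the most abundant of the 10 genes and was called higher in no population, at log2 changes of -0.30 to -0.08. WT control libraries had 435, 398 and 418 CPM and WT arsenite libraries 380.1, 407 and 395.6, and the groups overlapped. MTHFD2 fell by 0.30 ± 0.05 in S181E (edgeR adjusted p = 1.14e-05) and by 0.27 ± 0.05 in Y396E (edgeR adjusted p = 3.63e-05). In S181E the libraries went from 470.0, 484 and 468 to 389, 383 and 385 CPM. The change was -0.08 ± 0.05 in WT and -0.08 ± 0.05 in RQ, not called. With library totals in place of TMM, the MTHFD2 values were 0.07 in WT and 0.08 in RQ, and -0.25 in S181E and -0.22 in Y396E were no longer called. The Y396E call held in 17 of 32 alternatives, with values of -0.30 to -0.22, and was lost among others with all gene types, with only the groups compared and without Y396E arsenite replicate 1 (-0.23) or 2 (-0.25).

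PCK2 (ENSG00000100889.12, chromosome 14, 24094053 to 24104130, plus strand) had 15.9, 11.8 and 13.8 CPM in WT control libraries and 30.6, 29.1 and 31.8 after arsenite. In RQ cells the control libraries had 39.6, 35.5 and 41.7 CPM and the arsenite libraries 70.0, 89.4 and 115. The spread among the RQ arsenite libraries was the widest of the 8 groups, 91.4 ± 22.5 CPM (SD, n = 3). The log2 rises were 1.13 ± 0.15, 0.93 ± 0.15, 0.71 ± 0.15 and 1.23 ± 0.14 in WT, S181E, Y396E and RQ, with edgeR adjusted p-values of 1.83e-07, 4.03e-06, 0.00013 and 1.06e-08. The Y396E arsenite libraries had 28.0, 29.4 and 19.1 CPM, and without the last of them the Y396E rise was 0.90.

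**Figure D2:**
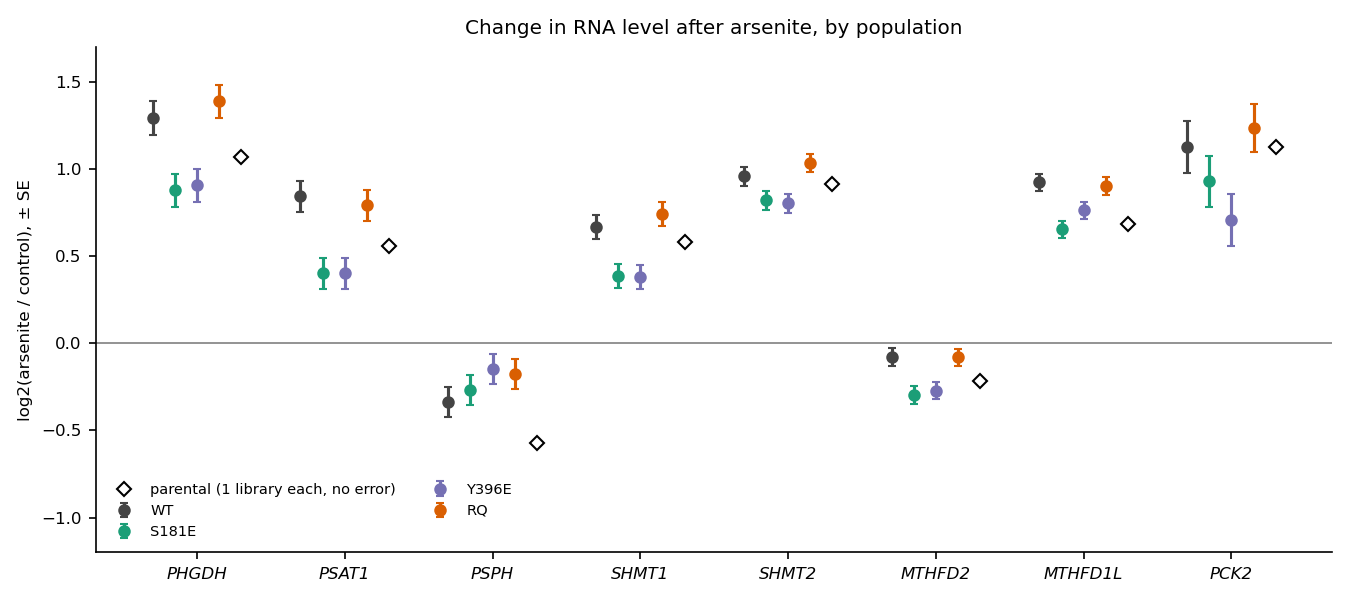
Log2 change of RNA level after arsenite for the 8 tested genes (vertical axis, ± SE from the edgeR fit) in WT, S181E, Y396E and RQ cells, with the parental pair as diamonds without an error. PHGDH reaches 1.39 in RQ, PSPH and MTHFD2 lie below 0 in every population (MTHFD2 in WT and RQ lies above 0 with library totals in place of TMM), and the S181E and Y396E points of PSAT1 (0.40 each) lie below those of WT (0.84) and RQ (0.79).

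The second comparison set the phosphomimetic populations against WT under the same treatment. In control cells PHGDH, PSAT1 and SHMT2 were higher in both S181E and Y396E, and SHMT1 was higher in S181E. Of the 8 genes, 4 were called higher in S181E and 3 in Y396E, against 15.7% and 14.5% of all genes tested. After arsenite PHGDH and SHMT2 were higher in both populations, 2 of 8 genes in each, against 5.32% and 9.77% of all genes. In each of the 4 contrasts 0 of the 8 genes were called lower, 0 were lower at an unadjusted p under 0.05 in edgeR, and 0 were called lower by DESeq2. The shares called lower among all genes were 15.4% for S181E and 14.2% for Y396E in control, and 8.42% and 11.9% after arsenite. The contrasts share the 3 WT libraries of a treatment, and they share them with the RQ contrasts as well. Since the genes were chosen with the RQ contrasts in view, the choice used these WT libraries too. The p-values do not account for that.

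Of the 8 genes PHGDH differed most in control cells. It was higher than in WT control cells by 0.74 ± 0.10 in S181E (edgeR adjusted p = 1.64e-06) and by 0.78 ± 0.10 in Y396E (edgeR adjusted p = 9.62e-07), on the log2 scale. The highest WT control library had 50.4 CPM and the lowest S181E or Y396E control library 68.5 CPM. After arsenite the differences were 0.33 ± 0.09 (edgeR adjusted p = 0.0131) and 0.39 ± 0.09 (edgeR adjusted p = 0.00218). SHMT2 had 203, 198 and 192 CPM in S181E and 199, 199 and 208 in Y396E control libraries, all above the WT values. Its log2 differences from WT were 0.47 ± 0.05 and 0.50 ± 0.05 in control and 0.33 ± 0.05 and 0.34 ± 0.05 after arsenite, with a largest edgeR adjusted p of 4.32e-05. PSAT1 was higher in control cells by 0.36 ± 0.09 in S181E (edgeR adjusted p = 0.00208) and 0.31 ± 0.09 in Y396E (edgeR adjusted p = 0.0077). After arsenite its differences were -0.08 ± 0.09 and -0.13 ± 0.09, not called. SHMT1 was higher in S181E control cells by 0.30 ± 0.07 (edgeR adjusted p = 0.00104), and its Y396E difference of 0.23 ± 0.07 was under the fold threshold.

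WT control replicate 2 had the lowest control value of PHGDH (34.3 CPM), PSAT1 (70.0 CPM) and PCK2 (11.8 CPM). Without it, S181E and Y396E control cells had 2 called genes each, PHGDH and SHMT2, while PSAT1 differed by 0.26 and 0.21 and SHMT1 in S181E by 0.21. The PHGDH differences were then 0.60 and 0.64. Under library totals instead of TMM, 6 and 5 genes were called, and the median difference over the whole table shifted by 0.16 and 0.13. The share of higher genes among all calls then stood at 83.5% and 80.9%, against 50.4% and 50.5% with TMM. MTHFD2 and MTHFD1L in S181E, at 0.34 and 0.35, and SHMT1 and MTHFD2 in Y396E, at 0.35 and 0.27, were then called as well. PCK2 was not called in either population or treatment. Its log2 differences from WT were 0.17 ± 0.15 and 0.17 ± 0.16 in S181E and Y396E control cells and -0.03 ± 0.14 and -0.26 ± 0.14 after arsenite. The Y396E arsenite value was -0.084 without Y396E arsenite replicate 3, and without replicate 2 it was -0.38 and called. MTHFD2 differed by 0.19 ± 0.05 and 0.15 ± 0.05 in control, with edgeR adjusted p of 0.00431 and 0.0223 and a fold change under 1.2. MTHFD1L and PSPH were not called in these 4 contrasts, and PSPH in Y396E arsenite went from 0.11 to -0.062 without replicate 3. The share of counts in protein-coding genes was also higher in the S181E and Y396E control libraries than in WT control, as was IGF2BP1 RNA, and their part in these differences was not tested.

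The third comparison tested whether the rise after arsenite differed from that in WT. With S181E the rise was smaller for PHGDH, PSAT1, SHMT1 and MTHFD1L, and with Y396E it was smaller for PHGDH, PSAT1 and SHMT1. Called lower were thus 4 of 8 genes in S181E and 3 of 8 in Y396E, against 9.41% and 11.1% of all genes tested. Such a difference was not particular to the members, since 4 of 6 genes of purine ring synthesis were called lower in each contrast. In the other direction 0 of 8 genes were called in each, 0 had an unadjusted p under 0.05 in edgeR and 0 were called by DESeq2, against 6.98% and 10.3% of all genes. For PSAT1 the difference of log2 changes was -0.44 ± 0.13 in S181E (edgeR adjusted p = 0.0177) and -0.44 ± 0.13 in Y396E (edgeR adjusted p = 0.0139). For PHGDH it was -0.42 ± 0.14 (edgeR adjusted p = 0.035) and -0.39 ± 0.14 (edgeR adjusted p = 0.0396). The SHMT1 differences were -0.28 ± 0.10 and -0.28 ± 0.10, with edgeR adjusted p of 0.0427 and 0.0333. MTHFD1L differed by -0.27 ± 0.07 in S181E (edgeR adjusted p = 0.0109) and by -0.16 ± 0.07 in Y396E, not called. These 4 genes started from a higher mean in S181E than in WT control cells, and after arsenite the fitted ratios of S181E to WT were 1.25 for PHGDH, 0.945 for PSAT1, 1.01 for SHMT1 and 0.952 for MTHFD1L. Without WT control replicate 2, 0 of the 8 genes were called in either contrast, at values of -0.34 for PSAT1 in both, -0.27 and -0.25 for PHGDH, -0.20 for SHMT1 in both and -0.23 for MTHFD1L in S181E. Without Y396E arsenite replicate 3 the SHMT1 difference in Y396E was -0.24 and was not called.

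RQ against WT is described here by its values, since the choice of genes used them. In control cells the mean RQ level was 2.80 times the WT level for PCK2, 2.34 for PSAT1, 1.52 for PHGDH and 1.41 for MTHFD2. After arsenite the ratios were 3.01, 2.25, 1.62 and 1.41, and PSPH stood at 1.28. By the call rule 4 of 8 genes were above WT in control, with 1.00% of all genes tested called higher and 0.429% lower, and 5 of 8 after arsenite, with 1.36% higher and 0.154% lower. Nothing is read from these counts. SHMT1, SHMT2 and MTHFD1L had ratios of 0.955, 1.07 and 1.10 in control and 1.01, 1.13 and 1.09 after arsenite. IGF2BP1 RNA in RQ also stood above WT, by 0.25 in control and 0.69 after arsenite on the log2 scale. Its part in the RQ values was not tested.

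For PCK2 the lowest RQ control library (35.5 CPM) lay above the highest arsenite library of the other 3 populations (31.8 CPM). For PSAT1 the lowest RQ control library had 179.3 CPM and the highest arsenite library of the others 156.9 CPM. MTHFD2 had 566, 580.2 and 612 CPM in RQ control libraries and 506, 552 and 604 after arsenite, each above the 370.0 to 483.6 CPM of the other 3 populations. PHGDH in RQ control cells overlapped with S181E and Y396E, and after arsenite its 3 RQ libraries lay above all others. The order of PCK2 group means was RQ arsenite, RQ control, then WT, S181E and Y396E arsenite, then the 3 other control groups, and the members of each of the last 2 sets overlapped. SHMT2 had another order under both treatments, with Y396E and S181E above RQ and RQ above WT in the means.

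The arsenite change in RQ differed from that in WT by 0.11 ± 0.20 for PCK2, -0.05 ± 0.12 for PSAT1, 0.09 ± 0.14 for PHGDH and 0.00 ± 0.07 for MTHFD2. Over the 8 genes these differences ran from -0.05 to 0.16. By the call rule 0 of 8 genes were higher and 0 lower in edgeR, 0 had an unadjusted p under 0.05 and 0 were called by DESeq2, beside 0.220% of all genes called higher and 0% lower. This difference combines the RQ against WT contrasts that the choice of genes used, so nothing is read from these counts either. Leaving out RQ arsenite replicate 3, the library with the highest PCK2 value, changed the PCK2 difference to -0.10.

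**Figure D3:**
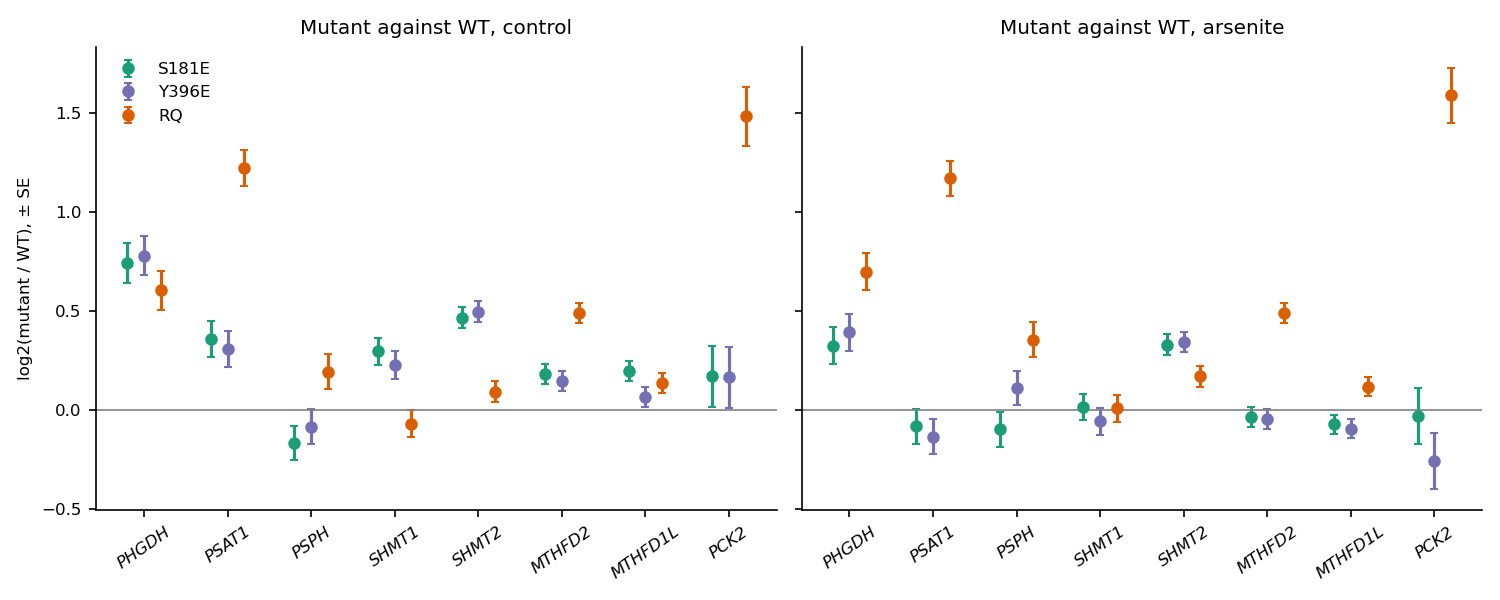
Log2 difference of each mutant population from WT for the 8 tested genes (vertical axis, ± SE from the edgeR fit), in control (left) and after arsenite (right). RQ stands at 1.48 and 1.59 for PCK2, where S181E and Y396E lie between -0.26 and 0.17, while S181E and Y396E lie above RQ for SHMT2 under both treatments.

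ASNS (ENSG00000070669.17, chromosome 7, 97851677 to 97872542, minus strand) and ALDH1L2 (ENSG00000136010.14, chromosome 12, 105019790 to 105107643, minus strand) were below the filter. ASNS had 5 to 20 counts per WT control library and 55 to 86 per WT arsenite library. Its level was 0.446 ± 0.212 CPM in WT control and 2.07 ± 0.0437 CPM in WT arsenite libraries (SD, n = 3), and 1.22 ± 0.142 and 5.54 ± 0.807 CPM in RQ. In an edgeR fit of genes with CPM above 1 in at least 3 libraries, ASNS rose after arsenite by 2.14, 1.42, 1.06 and 2.17 in the WT, S181E, Y396E and RQ populations, with adjusted p-values of 5.1e-07, 0.00012, 0.0014 and 6e-08. In that fit ASNS in RQ stood 1.39 above WT in control and 1.41 above it after arsenite on the log2 scale, given as a description. ALDH1L2 is the mitochondrial enzyme that oxidises the one-carbon unit to carbon dioxide. It had 0 to 35 counts per library and group means of 0.352 to 0.743 CPM. Its WT control libraries lay above the WT arsenite libraries and above the S181E and Y396E control libraries. In the other comparisons its groups overlapped, and no difference of ALDH1L2 was called in a fit without a filter. A change of ALDH1L2 was not detectable at this depth.

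The parental pair, without replicates, is given as values on a scale set over all 26 libraries. PHGDH had 60.8 CPM in the control library and 127.8 in the arsenite library, PSAT1 117.7 and 173.2, and PCK2 19.9 and 43.6. SHMT2 had 137.3 and 258.6 CPM, SHMT1 48.3 and 72.4, and MTHFD1L 78.7 and 126.4. PSPH had 53.6 and 36.0 CPM and MTHFD2 432.6 and 371.7. The ratio of each of the 8 genes lay on the side of 0 of its WT change, except that MTHFD2 in WT was at 0.07 with library totals. The log2 ratios were 1.07 for PHGDH, 1.13 for PCK2, 0.56 for PSAT1 and -0.57 for PSPH. The parental levels of PCK2, PSAT1 and PHGDH stood between those of WT and RQ under both treatments. In WT, parental and RQ control they were 13.9, 19.9 and 39.0 CPM for PCK2. In the same order they were 82.0, 117.7 and 192 CPM for PSAT1 and 43.6, 60.8 and 66.6 CPM for PHGDH. As nonengineered cells, the parental cells differ from WT and RQ in more than the transgene.

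Genes of neighbouring pathways were listed with earlier results known, and not for how they moved. Of 29 genes of folate and glycine metabolism, 13 were tested, and after arsenite 2 rose in each population, while 5 fell in WT and in RQ cells, 4 in S181E and 3 in Y396E. The fall of 5 of 13 in WT compares with 35.9% of all genes tested, and 2 of 13 higher with 36.3%. MTHFD1, the cytosolic trifunctional folate enzyme, rose by 1.94 ± 0.10 in WT and 2.00 ± 0.10 in RQ, and by 1.42 ± 0.09 in S181E and 1.33 ± 0.09 in Y396E. DLD, a dehydrogenase shared by the glycine cleavage system, rose by 0.77 ± 0.06 in WT. GGH, which trims folate polyglutamates, fell by 0.65 in WT, and the formyltransferase MTFMT by 0.48. The serine carrier SFXN1 fell by 0.54 in S181E and 0.46 in Y396E. GGH was also lower than in WT control cells, by 1.14 in S181E and 1.13 in Y396E, with edgeR adjusted p of 1.5e-07 and 2.1e-07, the largest differences of that list. In RQ control cells the folate carrier SLC19A1 stood at -0.33 ± 0.07 against WT.

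All 6 genes of purine ring synthesis, which uses formate, were tested, and 5 rose in each population after arsenite, against 32.0% to 37.1% of all genes tested. GART rose by 1.54 ± 0.06 in WT and 1.56 ± 0.06 in RQ, and PFAS by 1.62 ± 0.07 in S181E and 1.59 ± 0.07 in Y396E. Compared with WT control cells, 4 of the 6 were higher in S181E and 4 in Y396E, against 15.7% and 14.5% of all genes, among them PPAT by 0.53 ± 0.06 and 0.48 ± 0.06. In the arsenite response differences from WT, 4 of the 6 were called lower and 1 higher in each of these populations. Of all genes tested, 9.41% and 11.1% were lower and 6.98% and 10.3% higher. The purine ring medians were -0.31 and -0.39, and those of the 8 members -0.24 in each. The folate, methionine and other amino acid lists had 2 of 13, 2 of 8 and 3 of 15 genes lower in S181E. In Y396E they had 2, 1 and 4, with 0 higher in either. Of 12 genes of the methionine cycle and transsulfuration, 8 were tested, and 5 rose in WT and RQ, 3 in S181E and 4 in Y396E, beside the same 32.0% to 37.1%. CTH, the transsulfuration enzyme that makes cysteine, rose by 2.31 ± 0.15 in WT and 2.19 ± 0.14 in RQ. Of 20 genes of other amino acid synthesis, 15 were tested, and 7 rose in WT, S181E and RQ and 8 in Y396E, with 1 falling in each, against 32.9% to 35.9% of all genes called lower. PC, pyruvate carboxylase, rose by 1.75 ± 0.15 in WT, and ASNSD1 fell by 0.58. PYCR3, of proline synthesis, was lower than in WT control cells by 0.88 for S181E and 0.84 for Y396E. In RQ the aminotransferases GPT2 and GOT1 were the 2 genes of this list past the call rule, at 0.72 ± 0.13 and 0.31 ± 0.07 in control and 0.74 ± 0.13 and 0.59 ± 0.07 after arsenite. In the plot of these lists the median of WT after arsenite was 0.91 for purine ring synthesis, 0.50 for the methionine cycle, 0.26 for other amino acid synthesis and -0.08 for the folate list.

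**Figure D4:**
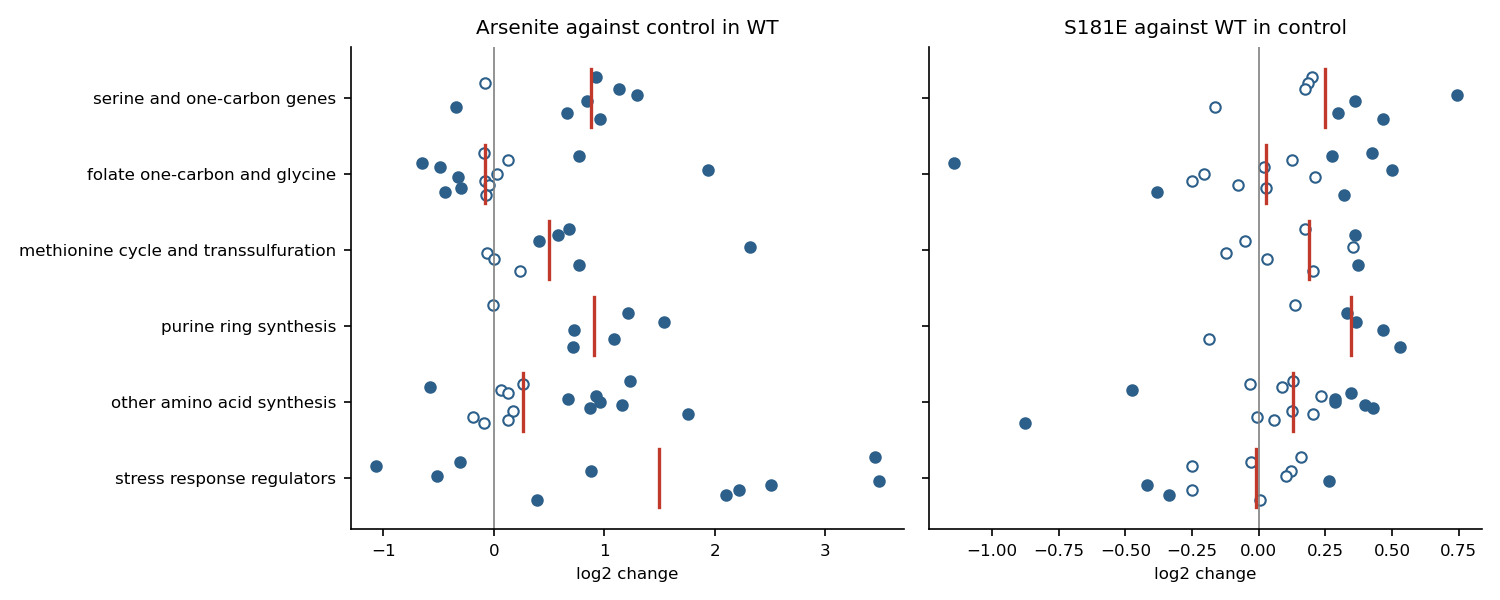
Log2 change of each tested gene (points, filled where called) by list, for arsenite against control in WT cells (left) and S181E against WT in control cells (right); red lines are medians. The serine and one-carbon genes have medians of 0.88 and 0.25, the purine ring genes 0.91 and 0.35 and the folate and glycine genes -0.08 and 0.03.

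Regulators of the integrated stress response are given beside the members, and their part in the members' values was not tested. ATF4 RNA had means of 793 ± 33.8 CPM in WT and 798 ± 22.4 in RQ control cells (SD, n = 3). After arsenite the means of WT, S181E, Y396E and RQ were 642 ± 6.35, 579 ± 7.82, 579.9 ± 21.6 and 857 ± 44.4 CPM. ATF4 fell by 0.30, 0.43 and 0.43 in the WT, S181E and Y396E populations, and its RQ change was 0.10 ± 0.04, under the fold threshold. TRIB3, a pseudokinase induced by ATF4, had 41.3, 40.7 and 41.8 CPM in WT control and 72.1, 83.5 and 92.5 in RQ control libraries. Its arsenite libraries had 51.2, 53.4 and 57.3 CPM in WT and 149, 177 and 250.5 in RQ. DDIT3 rose by 3.48 ± 0.09 in WT and 3.94 ± 0.09 in RQ, and CEBPB by 0.88 ± 0.07 and 1.47 ± 0.07. Both encode transcription factors of the stress response. TRIB3 and PCK2 thus had higher RQ values in both treatments, whereas DDIT3 and CEBPB in RQ control cells differed from WT by 0.26 ± 0.10 and 0.12 ± 0.07 on the log2 scale, with overlapping libraries for DDIT3 and a fold under 1.2 for CEBPB. Of the 10 tested regulators, 7 rose and 3 fell in WT, 6 rose and 3 fell in the phosphomimetic populations each, while RQ had 7 higher and 1 lower, beside 32.0% to 37.1% of all genes called higher. In RQ 2 of the 10 were above WT by the call rule in control and 7 after arsenite, and the response difference of RQ from WT was past the rule for 6, beside 1.00%, 1.36% and 0.220% of all genes, given as a description.

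Across the 24 libraries the members did not share a single pattern. Pearson's r of log2 CPM was 0.977 between PSAT1 and PCK2, 0.948 between SHMT1 and SHMT2 and 0.941 between PHGDH and SHMT2. It was 0.790 between PSPH and MTHFD2, and -0.695 between PSPH and SHMT1. PSAT1 and PCK2 had 0.427 and 0.465 with SHMT2. The tested genes most like the mean profile of the 8 members were SARS1 (r = 0.978), YARS1 (r = 0.977), GARS1 (r = 0.971) and CARS1 (r = 0.964), which encode aminoacyl-tRNA synthetases, and ETV5 (r = 0.959). These values describe 24 libraries of 8 groups that share the arsenite contrast.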

How the data were processed

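Poly(A) RNA came from clarified lysates that served as input for immunoprecipitation. The authors trimmed single reads, aligned them to hg38 with STAR 2.7.11b and counted reads per gene with featureCounts (Subread 2.0.6), and deposited the counts without normalization. Per the file headers, counting was over exons with strand setting 2 and GENCODE release 46. Symbols came from GENCODE release 44, which matched 62541 of 63086 identifiers (99.14%).

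Groups came from the labels. The filter of the study's methods, CPM above 10 in 12 or more of 24 libraries, left 9099 protein-coding genes for testing. One model with 1 mean per group (16 residual degrees of freedom) was fitted with TMM scaling in edgeR 4.0.16 (R 4.3.3) and tested with glmQLFTest, with Benjamini-Hochberg adjustment over all tested genes. A gene was called at an adjusted p under 0.05 and a fold change above 1.2. The SE of a log2 change was taken as its size over the root of the F statistic. Fits were tested on simulated data. The parental pair stayed out of the fit. P-values measure the spread between dishes of 1 population per construct. No replicate pair was identical, and the chi-square per gene of the 24 pairs was 2.67 or more.

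The members and lists were chosen with earlier results of these data known. Named are the 10 members, IGF2BP1, ATF4, DDIT3, TRIB3, CEBPB, up to 2 called genes per direction, comparison and list whose groups did not overlap, the 5 genes most like the members' mean profile (log2 CPM, prior count 2) and pseudogenes of members. Alternatives were DESeq2 1.42.0, its size factors in edgeR, library totals, a filter of CPM above 1 in 3 libraries, no filter, genes of every type, a fit to the compared groups alone, a block for replicate number, each library left out and, added after seeing the data, PSPH summed with PSPHP1. Deviations of same-numbered libraries from their group means correlated over 0.1 in all 3 pairs for RQ against WT in control (0.291 to 0.525) and in arsenite (0.147 to 0.15), and in no other comparison. By that rule the numbers paired these libraries by the data, not by the labels. Immunoprecipitation libraries were not analysed here.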

Additional observations from a re-analysis of the deposited data

Results flagged for a closer look

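The arsenite response of several members differed between populations in the test of the difference itself (edgeR quasi-likelihood, Benjamini-Hochberg adjusted over 9099 genes, 3 libraries per group). In S181E the log2 response minus that of WT was -0.42 for PHGDH (adjusted p = 0.035), -0.44 for PSAT1 (adjusted p = 0.0177), -0.28 for SHMT1 (adjusted p = 0.0427) and -0.27 for MTHFD1L (adjusted p = 0.0109). In Y396E it was -0.39 for PHGDH (adjusted p = 0.0396), -0.44 for PSAT1 (adjusted p = 0.0139) and -0.28 for SHMT1 (adjusted p = 0.0333). All 7 differences have the WT control libraries in common, of which replicate 2 had the lowest values of PHGDH, PSAT1 and SHMT1. Without that library none of the 7 was called, at -0.34 to -0.20. The WT libraries were also in view when the members were chosen, and the p-values do not account for that choice. The share of protein-coding counts also differed between WT and the S181E and Y396E control libraries, and its part was not tested.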

How the results depend on the processing

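Of 104 values of members, 55 were called, and 40 of these kept direction and call under every alternative run, among them each rise after arsenite of PHGDH, PSAT1, SHMT1, SHMT2, MTHFD1L and PCK2. Of the 49 not called, 28 did so. The 104 values include RQ against WT in each treatment and its response difference, which the choice of genes had in view. Nothing is read for RQ from these tallies. The replicate number as a block changed none of the 104 calls, and 7, 8, 7 and 6 members were called after arsenite in WT, S181E, Y396E and RQ, as without it. For RQ against WT, where the numbers paired the libraries, 4 members were past the rule in control and 5 after arsenite with the block, as without it. In the other 8 comparisons not all 3 pairs correlated over 0.1. Single pairs did, up to 0.421 in Y396E against WT in control. Over all 10 comparisons each library was closest to its own number in 5. The count of members called moved by over 1.5 times in 4 comparisons. For Y396E against WT in control it was 5 with library totals, against 3. The S181E response difference had 2 with DESeq2 size factors in edgeR and 1 without a filter, against 4, and the Y396E response difference had 1 without a filter and 1 with only the groups compared, against 3. Leaving out 1 library at a time gave 2 to 4 for S181E against WT in control, 0 to 4 for the S181E response difference and 0 to 3 for that of Y396E, with the lowest counts without WT control replicate 2. The S181E response difference had 1 called without WT arsenite replicate 2, and 2 without WT arsenite replicate 1 or 3, S181E control replicate 1 or 3 or any S181E arsenite library. That of Y396E had 1 without WT arsenite replicate 2 or 3 or Y396E control replicate 3. Reversed signs were all of values not called. With library totals, PSPH was 0.046 in Y396E control and -0.044 in the S181E response difference. SHMT1 was -0.038 in RQ arsenite with library totals and -0.021 without a filter. MTHFD2 was 0.075 and 0.081 after arsenite in WT and RQ, 0.011 in S181E arsenite and 0.0057 in the RQ response difference with library totals, and 0.0033 in the latter with CPM above 1 in 3 libraries. PCK2 was 0.015 in S181E arsenite with library totals. With 1 library left out, the RQ response difference ranged from -0.026 to 0.24 for PHGDH, -0.17 to 0.048 for PSAT1, -0.073 to 0.059 for MTHFD2, -0.061 to 0.015 for MTHFD1L and -0.10 to 0.26 for PCK2. PSPH in Y396E arsenite ranged from -0.062 to 0.19, SHMT1 in RQ arsenite from -0.0029 to 0.024, and PCK2 in S181E arsenite from -0.064 to 0.0024. Library totals moved the median of the whole table by 0.16 for arsenite in WT and RQ, and the share of higher calls from 50.3% to 61.4% and from 50.9% to 61.8%. For S181E against WT in arsenite it went from 38.7% to 55.6%, for RQ against WT from 70.0% to 38.3% in control and from 89.9% to 77.7% in arsenite, and for the S181E and Y396E response differences from 42.6% to 13.0% and from 48.1% to 18.4%. The cause of these changes was not tested. Depth limits ALDH1L2, at 35 counts or fewer per library. PCK2 had 11.8 CPM in its lowest library and spread from 70.0 to 115 CPM among the RQ arsenite libraries. The part of depth in its precision was not tested.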
